A study of Chlamydomonas reinhardtii with 8 samples.

Results

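Sulfur-starved cells of the Chlamydomonas reinhardtii wild type cc3491 were compared with cells taken at T0, before starvation, on the 4 arrays of this strain that carried signal. They are 4 of the 8 arrays of the series. All 6 arrays of cc3491 hold T0 RNA labelled with Cy3 and RNA of starved cells labelled with Cy5. Arrays were kept when at least 6% of their probes were well above background in either channel, so they were selected on their measured brightness. The dimmest array kept, array 6, had 38.5% of its probes above background, and the brightest array left out, array 2, had 5.64%. The other values were 50.7% on array 3, 56.0% on array 4, 41.6% on array 5 and 4.99% on array 1.

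The cells had been grown in TAP, an acetate medium, in continuous light, then washed and moved to TAP without sulfur. No dye swap was made for this strain. The titles give 24 h for every array, whereas the time given for the Cy5 channel is 72 h on array 3, 96 h on array 4, 24 h on array 5 and 48 h on array 6, so the duration of starvation is not settled. Arrays 3 and 4 share a slide and arrays 5 and 6 share another, and time and slide cannot be told apart. The study used biological and technical replicates without saying which arrays are which, and p-values may therefore measure only the spread between hybridisations. The remaining 2 arrays of the series hold RNA of a second wild type, cc125, given as starved for 24 h in both channels, and served as a dye test.

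Sulfur is taken up by algae as sulfate, activated by ATP sulfurylase, reduced to sulfide and built into cysteine, from which methionine and glutathione derive. When sulfate runs short, Chlamydomonas is known to make high-affinity sulfate transporters, secrete arylsulfatases that free sulfate from organic esters, exchange cell wall proteins for ones poor in sulfur amino acids, and lower photosynthesis. The light-harvesting proteins bind chlorophyll around the photosystems. The LHCSR members of that family are known for dissipating excess light energy.

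Each transcript model of the array, named by the number it carries in an early annotation of the genome, has 3 probes of 60 bases. The study describes the third probe of a model as based on an earlier array. It reports smaller ratios from probes of that array, with a high potential for cross-hybridisation in many, and left them out of its analysis. Of 43705 probes, 18241 were tested, namely those with a signal well above background, in Cy3 or Cy5, on 3 or all 4 of the arrays. Ratios are given as log2 of Cy5 over Cy3, so positive values mean more signal from the starved cells. All log2 values below are such ratios, and their means are over the 4 arrays. Over the tested probes, arrays 3 and 4 correlated at r = 0.93 and the other 5 pairs at 0.72 to 0.74. The left-out arrays 1 and 2 correlated with the mean of arrays 3 to 6 at 0.04 and 0.00. These are correlations across probes, which are not independent replicates. The first dye-test array put 0.398% of the same probes beyond 2-fold, against 9.0% to 17.2% on arrays 3 to 6 and 13.6% and 13.1% on the dim arrays 1 and 2. The first dye-test array is of another strain and brighter, with 92.7% of its probes above background, so its readings are given below only as values of the same probes. The second dye-test array put 31.6% beyond 2-fold although both its channels carry the same label. It goes against that label, so no level was taken from it.

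The test found 858 probes higher and 781 lower in the starved cells, which is 4.70% and 4.28% of the probes tested (limma; the threshold was a Benjamini-Hochberg adjusted p of 0.05 together with a 2-fold change). With the Holm correction named in the study's methods the counts were 145 and 67. A model was called when its probes 1 and 2 both passed in the same direction. Of 4993 models with both probes tested, 194 were raised (3.89%) and 149 lowered (2.98%), 6.87% in either direction. With Holm adjustment 29 were raised and 12 lowered. All 343 called models had the same sign on every array in both probes, which their selection on these 4 arrays makes likely. The other 9564 models had at least 1 of the 2 probes too dim to test. In these bulk cultures, fewer cells carrying a transcript and less of it per cell cannot be told apart.

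The balance of the calls depended on scaling. Raised probes made up 52.3% of the called probes after loess normalization and 40.1% when the deposited ratios were used without further normalization, which moved the median of the tested probes by -0.10 on the log2 scale. Without that normalization 179 models were raised and 193 lowered, and 179 and 148 of these were among the models called above. With another background correction (normexp, offset 50) 72 models were raised and 45 lowered, of which 72 and 40 were shared. Sizes changed too. Of 42 called models named below, 40 had a smaller change with normexp, and in 30 the fold change shrank by more than 1.5 times (median 2.22 times, up to 15.7 times in model 182218).

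The largest rise by both probes was that of model 195337, at locus CHLRE_08g365100v5 on chromosome 8. Its probe 1 gave log2 ratios of 5.09, 4.71, 4.63 and 4.47 on arrays 3 to 6, and its probe 2 gave 5.02, 4.59, 4.62 and 4.58. All 8 values were far from 0, with means of 4.73 ± 0.26 and 4.71 ± 0.21 (SD, n = 4) and adjusted p-values of 0.000133 and 0.000111 (limma). On the first dye-test array the same probes read -0.10 and 0.08. The probes share a run of 59 of their 60 bases and therefore read nearly the same stretch of RNA. Probe 3 was too dim to test, with values between 2.54 and 3.42.

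Models 182218 and 184983 were detected in the starved cells but not at T0. Model 182218 (CHLRE_02g101700v5) read 5.83, 5.09, 4.53 and 4.29 with probe 1 and 5.79, 4.16, 4.75 and 3.18 with probe 2, and its T0 signal was not well above background on any array. Against the lowest signals counted as above background the rise was at least 7.89-fold with probe 1 and at least 7.50-fold with probe 2. Such a bound sets the mean signal of the starved cells against the higher of the probe's own T0 signal and the lowest signal well above background on each array. Model 184983 (CHLRE_05g237150v5) read between 3.82 and 4.78 in both probes, likewise from a T0 signal not well above background, and rose at least 9.33-fold with probe 1 and at least 9.02-fold with probe 2. Those lowest signals were taken over all probes of an array, so the bounds are approximate and hold only within the main processing. Both models lost their call with normexp, where their mean log2 ratios of 0.73 and 0.81 were smaller rises than the bounds.

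Model 158299 was raised with all 3 probes, at means of 4.11, 4.47 and 3.96. T0 was not well above background on any array in its probe 2, which bounds that rise at 6.55-fold or more, and with normexp its mean was 0.75 and the call was lost. Model 182570 (CHLRE_10g453300v5) gave means of 3.76, 3.65 and 3.67 and was the only one of the 12 largest rises besides model 158299 with 3 called probes. Its 12 values lay between 3.41 and 3.97, well apart from the dye-test readings of 0.02 to 0.11.

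Models 195433 and 195434 carry identical sequences as probe 1 and identical sequences as probe 2, so they are 1 measurement made on separate spots. Both read 4.24 with probe 1 and 4.07 with probe 2. Their probe 3 did not rise above background on any array. Model 206120 had similar values of 4.23 and 4.03. The other large rises were those of model 190948 (3.95 and 4.28), model 189618 (4.02 and 3.82), model 205639 (3.79 and 3.99) and model 192924 (4.36 and 3.68). With normexp the means of these 4 were 1.79, 2.69, 1.63 and 1.99, still called, and those of models 195433, 195434 and 206120 were 2.17, 2.21 and 2.16. None of the 12 has a gene name in the tables used here.

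**Figure D1:**
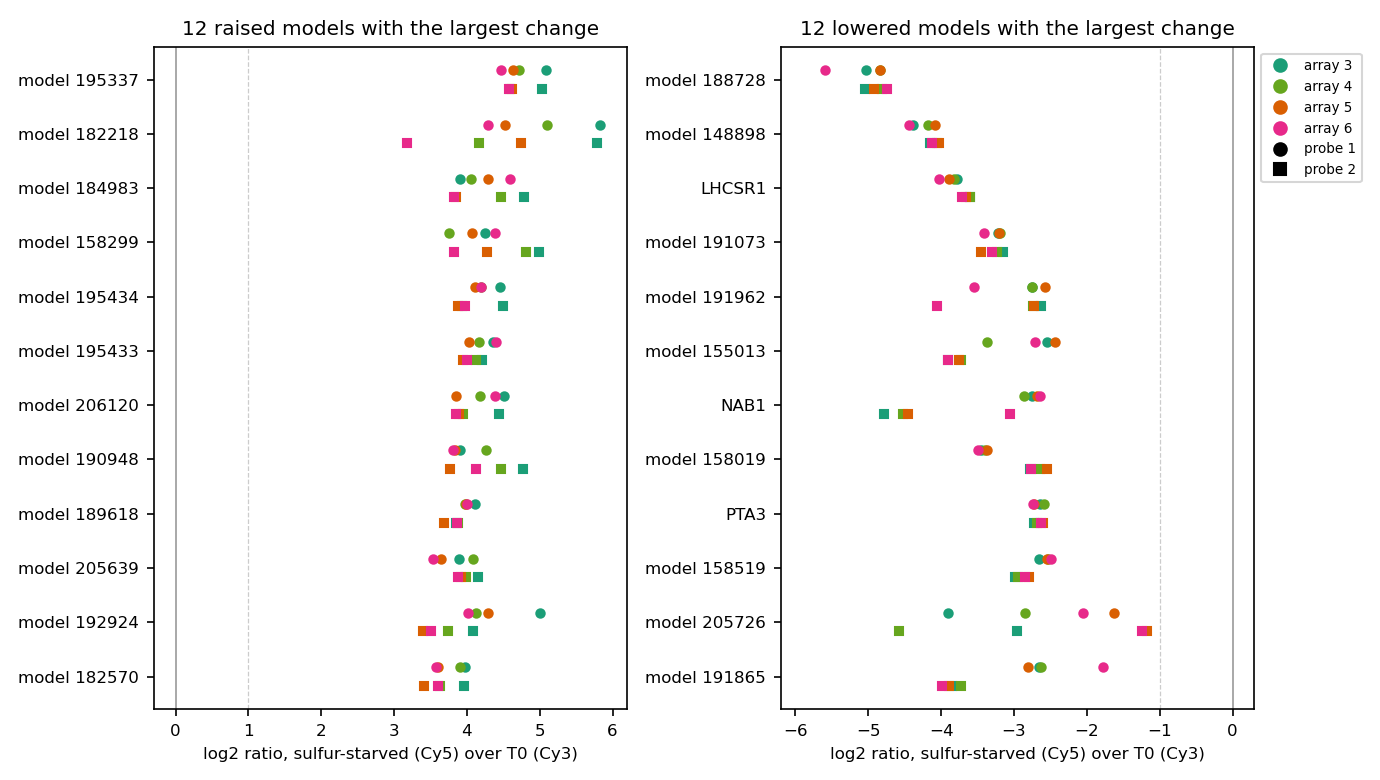
Log2 ratio of starved over T0 cells for the 12 models with the largest rise (left) and the 12 with the largest fall (right), with 1 point per array for probe 1 (circles) and probe 2 (squares), and dashed lines at 2-fold. Every point lies beyond 2-fold on its own side, and model 182218 spreads from 3.18 to 5.83 between arrays whereas PTA3 stays between -2.74 and -2.59.

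The largest fall was that of model 188728 (CHLRE_12g487250v5, chromosome 12). Probe 1 read -5.04, -4.84, -4.84 and -5.60 on arrays 3 to 6 and probe 2 read -5.04, -4.81, -4.92 and -4.74. The means of -5.08 ± 0.36 and -4.88 ± 0.13 (SD, n = 4) correspond to signals 33.8-fold and 29.4-fold lower in the starved cells (limma adjusted p = 0.000172 and 8.98e-05). Model 148898 (CHLRE_09g393543v5) followed at -4.27 and -4.09. Both were near 0 on the first dye-test array, where their probes read between -0.10 and 0.41.

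The named genes among the 12 largest falls were LHCSR1, NAB1 and PTA3. NAB1, a nucleic acid binding protein known to repress the translation of light-harvesting messages in the cytosol, read -2.76, -2.86, -2.68 and -2.64 with probe 1. Probe 2 read -4.79, -4.52, -4.46 and -3.05, and its starved signal was well above background on only 1 array. The means of probes 1, 2 and 3 were -2.73, -4.20 and -1.53, so all 3 were lowered while the size of the fall ranged from 2.88-fold to 18.4-fold between probes. With normexp the mean of probes 1 and 2 was -1.37 in place of -3.47. PTA3, described as a proton/phosphate symporter, read between -2.74 and -2.59 in probes 1 and 2, which share a run of 50 bases, and -1.37 ± 0.44 in probe 3.

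Model 158519 (CHLRE_09g392867v5) was lowered evenly, at -2.56, -2.90 and -2.85 in probes 1 to 3 with SDs of 0.07, 0.09 and 0.05. The remaining large falls were those of models 191073 (-3.26 and -3.29), 191962 (-2.91 and -3.04), 155013 (-2.77 and -3.82), 158019 (-3.43 and -2.68) and 191865 (-2.47 and -3.86). Model 205726 read -2.61 ± 1.01 and -2.49 ± 1.61 but was not well above background in the starved cells in either probe, which bounds the falls at 2.02-fold and 1.88-fold or more. Its call was lost without array 3, 4 or 6, where the means were -2.25, -2.16 and -2.85, and with slide as a random block or averaged. With normexp its mean log2 ratio was -0.34, a smaller fall than those bounds, and the call was lost too. Dim starved signals were common among the lowered models. In 53 of the 149, probe 1 or 2 was above background in the starved cells on 2 arrays or fewer, whereas 17 of the 194 raised models had a T0 signal that dim.

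Of 19 models in a list of sulfur uptake and assimilation genes, 13 had both probes tested, 2 were raised and none was lowered, where 3.89% and 2.98% of all models were. The median of the 13 was 0.45, against -0.02 over all models tested. Most gene names used here come from the study's own tables of genes that responded to nutrient starvation. Counts over named lists are therefore not independent evidence of a direction. The raised members were SLT1 and CDO1.

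SLT1 is described as a sodium/sulfate co-transporter, a class of proteins that import sulfate. Probe 1 read 1.91, 1.70, 2.01 and 2.18, probe 2 read 2.49, 2.22, 2.36 and 2.09, and probe 3 read 2.69, 3.1, 2.16 and 3.07. No value was below 1.7, and the first dye-test array read -0.39, -0.38 and -0.21. The means were 1.95 ± 0.20, 2.29 ± 0.17 and 2.75 ± 0.44 (SD, n = 4; limma adjusted p = 0.00041, 0.000248 and 0.000823), which is a rise of 3.86-fold to 6.74-fold. With normexp the mean of probes 1 and 2 was 0.60 and the call was lost.

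CDO1 encodes cysteine dioxygenase, the enzyme that oxidises cysteine and so opens its breakdown. Its probe 1 read 3.23, 3.20, 2.72 and 2.97 and its probe 2 read 3.29, 3.18, 3.03 and 3.14. The rises of 8.17-fold and 8.93-fold were the largest among the sulfur genes (limma adjusted p = 0.000223 and 0.000111). With normexp the mean was 1.60 in place of 3.09, and the model was still called. On the first dye-test array probe 1 read 0.62, and probe 2 had no value.

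The other sodium/sulfate co-transporters were not called. SLT2 was higher in probe 1 alone (1.14 ± 0.22, adjusted p = 0.00173), with a probe 2 too dim to test and 0.44 in probe 3. SLT3 split between its probes, at 0.93 ± 0.08, 1.94 ± 0.24 and -0.06 ± 0.40 in probes 1 to 3. Probe 1 lay just below the 2-fold line, and with median centring in place of loess the model passed, at a mean of 1.45.

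The secreted proteins best known from sulfur starvation were at the edge of detection, whereas the study reports that ARS1, ARS2, ECP76 and ECP88 rose. The arylsulfatases ARS1 and ARS2, which release sulfate outside the cell, and ECP88, an extracellular polypeptide, were above background on at most 1 of the 4 arrays in any channel and probe, and were not tested. ECP76, another extracellular polypeptide, read 4.45 and 3.66 with probe 1 on arrays 3 and 4, where the starved signal was above background, and 0.13 and 0.46 on arrays 5 and 6, where it was not. Its probes 2 and 3 were above background on no array. Arrays 3 and 4 carry the times 72 h and 96 h and share a slide, so time and slide cannot be told apart here either.

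The enzymes of sulfate assimilation moved less than 2-fold. ATS2, an ATP sulfurylase, read -0.30 and -0.22. SIR1, the sulfite reductase that makes sulfide, read 0.42, 0.71, 0.17 and -0.43 with probe 1 and 0.34, 0.30, -0.20 and -1.20 with probe 2, and arrays 3 and 4 were thus positive in both probes while array 6 was negative. The mean of probes 1 and 2 was near 0 and changed sign with the scaling. In each of them the starved signal was well above background on only 2 arrays. Probe 3, well above background in both channels on all 4 arrays, read 0.60, 0.73, 0.23 and 0.53. The models annotated as OASTL4, an enzyme that makes cysteine, read 0.49 and 0.41 (model 189320) and 0.47 and 0.47 (model 205991). SQD1, which starts the synthesis of the sulfolipid of chloroplast membranes, read 0.44 and 0.15. SUOX1, a sulfite oxidase, read 0.25 in the only probe tested. Of these, both OASTL4 models passed the adjusted p threshold in both probes without reaching 2-fold. The same held for GSH2, the glutathione synthetase, at 0.62 and 0.63.

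**Figure D2:**
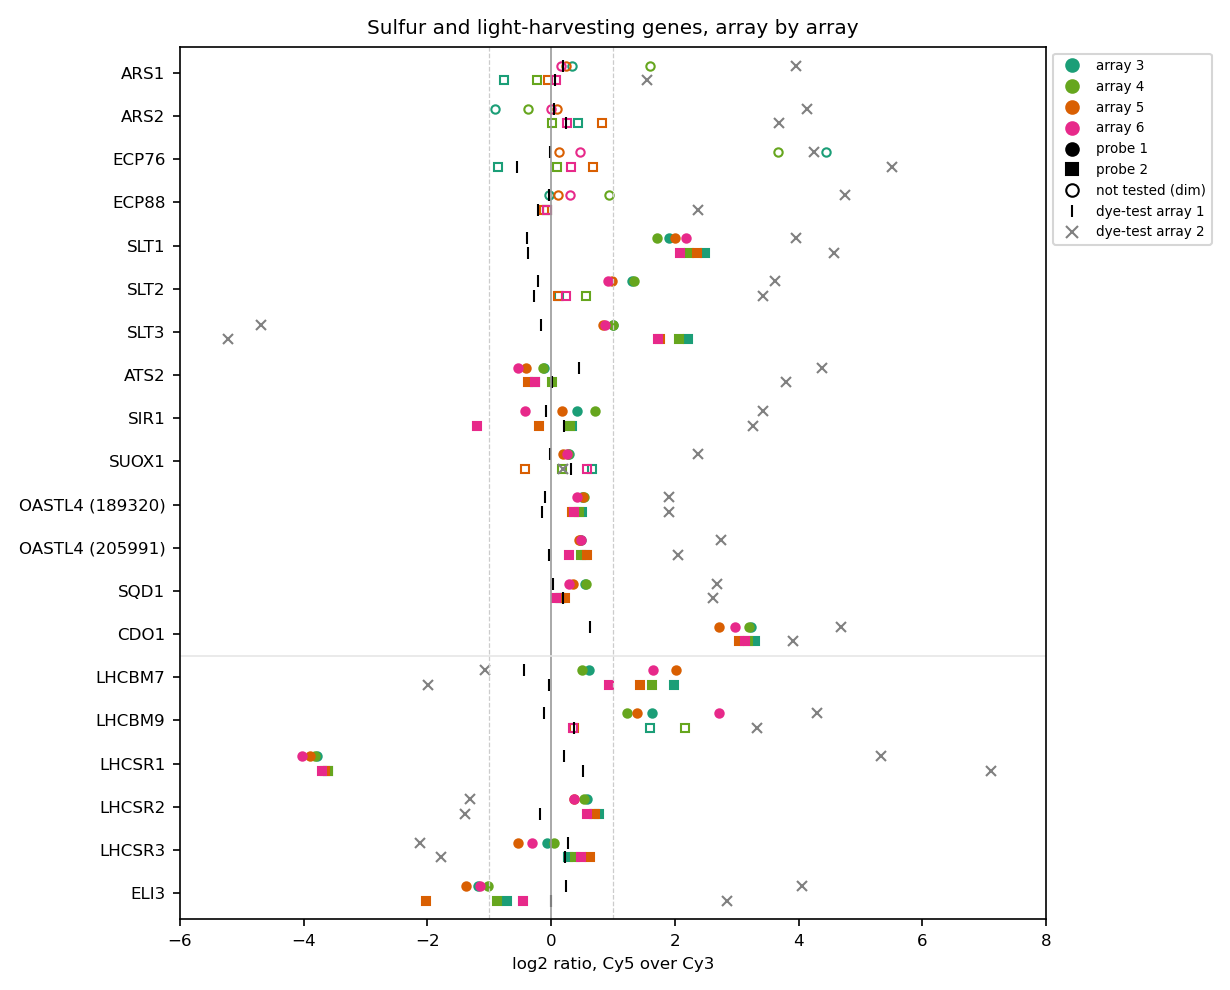
Log2 ratio of Cy5 over Cy3 for sulfur genes (above the line) and light-harvesting genes (below it), with 1 point per array for probe 1 (circles) and probe 2 (squares), open symbols for probes too dim to test, black ticks for the first dye-test array and grey crosses for the second. SLT1, CDO1 and LHCSR1 stand apart from 0 on all 4 arrays, the first dye-test array reads between -0.39 and 0.62 for them, and ECP76 splits between arrays 3 and 4 at 4.45 and 3.66 and arrays 5 and 6 at 0.13 and 0.46.

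LHCSR1 was lowered on these arrays, a direction opposite to the one the study gives for this gene. Probe 1 read -3.78, -3.82, -3.90 and -4.03, probe 2 read -3.61, -3.60, -3.66 and -3.71, and probe 3 read -3.20, -2.74, -3.10 and -3.09. No value on any array came closer to 0 than -2.74, and the first dye-test array read 0.20, 0.52 and 0.26. The signals in the starved cells were 14.8-fold, 12.5-fold and 8.18-fold lower (limma adjusted p = 8.98e-05, 8.98e-05 and 0.000186). In probe 3 the starved signal was well above background on only 1 array. With normexp the mean of probes 1 and 2 was -2.96 in place of -3.76.

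Its relatives LHCSR2 and LHCSR3 were not called. LHCSR2 read 0.46 ± 0.10, 0.68 ± 0.08 and 0.90 ± 0.09 in probes 1 to 3, all past the adjusted p threshold and all short of 2-fold. LHCSR3 read -0.22, 0.45 and -0.23, with probes on both sides of 0. These genes are close in sequence, so probes may bind more than 1 of them. ELI3, an early light-inducible protein, was called lowered at -1.18 ± 0.15 and -1.02 ± 0.69. Its probe 2 ranged from -2.03 to -0.46. The call was lost when any 1 array was left out, at means of -0.90 to -1.20, and with slide as a random block. It was also lost with median centring, at -1.08, and with normexp, at -0.78. The study's values for sulfur starvation are averages over 24 h to 96 h. There SLT1 rises and LCI1 falls, as here, whereas ELI3 rises. SLT3 falls there, unlike its probes 1 and 2 here. ATS2, SIR1, SUOX1, LHCSR2 and LHCSR3 rise there, while the means of their tested probes stayed within 2-fold here. ARS1, ARS2, ECP76 and ECP88 also rise there and were too dim to test here.

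Among 11 light-harvesting proteins with both probes tested, 1 was raised and 1 lowered, beside 3.89% and 2.98% of all models, with a median of 0.23. The raised one was LHCBM7, a protein of the main antenna of photosystem II, for which the study gives the opposite direction. Its probe 1 read 0.62, 0.49, 2.02 and 1.65 and its probe 3 read 0.72, 0.75, 2.08 and 2.08, so both were higher on arrays 5 and 6 than on arrays 3 and 4. Probe 2 ran the other way, at 1.99, 1.63, 1.44 and 0.94. Probe 1 was saturated on 3 arrays and probe 3 on 2, so these readings are limited at the bright end, and without saturated spots the model had no value. The call was lost without array 3, 5 or 6, at means of 1.36, 1.22 and 1.37, with every other scaling tried except subtraction of the first dye-test array, and when the arrays of a slide were averaged. LHCBM9, of the same antenna, was higher in probe 1 alone (1.74 ± 0.67, adjusted p = 0.00809), and its probe 2, not tested, read 1.60, 2.16, 0.37 and 0.35. Probe 1 of LHCBM9 was well above background on 3 arrays at T0 and on 2 in the starved cells. LHCBM4 and LHCBM8 read -0.58 and -0.08 with probe 1.

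No member of the photosystem, cytochrome b6f and electron carrier, Calvin cycle or tetrapyrrole lists was called, where 6.87% of all models were. The 3 photosystem subunits with both probes tested had a median of 0.52 and lay between 0.38 and 0.54. The study reports instead that most photosynthesis genes fell under sulfur starvation, photosystem subunits among them. The medians were -0.16 over 3 electron transport genes, -0.33 over 3 Calvin cycle enzymes and -0.22 over 4 enzymes and factors of tetrapyrrole synthesis. FNR1, the reductase that passes electrons from ferredoxin to NADP, read -0.57 and -0.91. These lists are short, since few models have a name in the tables used here.

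Genes that respond to low CO2 moved in both directions. Of 6 with both probes tested, 2 were lowered and 2 raised, where 6.87% of all models were called in either direction, and the median was -0.96. CAH1, the periplasmic carbonic anhydrase, read -4.66, -4.41, -4.46 and -4.65 with probe 1, a fall of 23.4-fold with an SD of 0.13. Its probe 2 read -3.56, -3.70, -0.99 and -0.79, which splits by slide, was not well above background in the starved cells on any array, and is bounded at 1.10-fold or more. Probe 3 read -2.10 ± 0.32. The call, which needs both probes, was lost without array 3, 4 or 5, at means of -3.17, -3.19 and -3.63, with slide as a random block or averaged, and with normexp, at -1.88, while probe 1 alone passed Holm adjustment (limma, Holm-adjusted p = 0.00113).

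LCI1, a membrane protein induced by low CO2, was lowered to -2.09 ± 0.17 and -2.19 ± 0.36 with probes that share a run of 29 bases, whereas its probe 3 read -0.32 and was not called. The call was lost with normexp, at a mean of -0.41. LCR1, a Myb-type regulator known to control CAH1 and LCI1, was named after its values were seen. It read -1.86, -2.42 and -2.25, and was lower in probes 2 and 3 (adjusted p = 0.00132 and 0.000294) but not in probe 1, whose values ran from -4.01 to -0.34 (adjusted p = 0.0736). The raised members were LCI28, an aldose reductase, at 1.82 and 1.78, and LCI36, at 1.02 and 1.12. LCI36 lost its call without array 3 or array 4, at means of 1.05 and 1.04. Its call was also lost without further normalization, at 1.02, with normexp, at 0.67, and after subtraction of the first dye-test array, at 0.96.

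Of 8 genes of nitrogen uptake and assimilation, 1 was lowered and none raised, beside 2.98% and 3.89% of all models, with a median of 0.02. GLN3, a glutamine synthetase, read -1.16, -1.02, -1.93 and -2.02 with probe 1 and -1.06, -1.02, -1.52 and -1.87 with probe 2, which is lower on arrays 5 and 6 than on arrays 3 and 4. The call was lost with normexp, at -0.43, and when the arrays of a slide were averaged, at -1.45. PTA3 was the lowered one among 3 phosphate genes, where 2.98% of all models were lowered. PTB2, a sodium/phosphate symporter, read -0.92 and -0.95.

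Cell wall genes were raised and lowered. Of 7 tested, 2 were raised and 1 lowered, beside 3.89% and 2.98% of all models. VSP3, an extracellular matrix protein, rose by 1.58 and 1.56 on the log2 scale. Model 195937, a hydroxyproline-rich glycoprotein of the kind that forms the algal wall, rose by 1.79, 1.82 and 2.15 in its 3 probes. FAS3, a fasciclin-like protein, fell by 1.59, 1.31 and 1.82. The median of the list was 0.70. Model 195937 lost its call with normexp, at 0.61.

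GPD1, a glycerol-3-phosphate dehydrogenase that makes the backbone of glycerolipids, was raised with little spread. Probe 1 read 2.15, 2.08, 2.14 and 2.14 and probe 2 read 2.05, 1.99, 1.97 and 1.98, a rise of 4.37-fold and 4.0-fold with SDs of 0.03 and 0.04 (adjusted p = 0.000131 and 0.00014). Probe 3 gave 1.84 ± 0.43. Of 5 lipid genes it was the only one called, where 6.87% of all models were called in either direction, and the median was 0.04. With normexp the mean was 1.35 and the call was lost.

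Of 16 flagellar genes tested, 1 was lowered and 1 raised, beside 2.98% and 3.89% of all models. The median of the list was -0.54, and 15 of the 16 (93.8%) lay below 0, as did 52.0% of all models. FAP151, a flagellar associated protein, was lowered to -1.21 ± 0.04 and -1.31 ± 0.07. FA1, needed for the shedding of flagella, was raised to 2.23 ± 0.24, 1.56 ± 0.53 and 2.89 ± 0.38. Its signals were dim. Probe 1 was well above background on 2 arrays at T0 and 3 in the starved cells, and probe 2 on 4 and 2. The call of FA1 was lost when the arrays of a slide were averaged, at 1.89, and with normexp, at 0.46, and that of FAP151 with normexp, at -0.65.

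A raised gene was also found in each of 2 short lists, where 3.89% of all models were raised. SMC5B, of a family of proteins that organise and repair chromosomes, was raised to 2.52 ± 0.55 and 2.73 ± 0.19 among 4 genes of DNA replication and the cell cycle (median 0.41). UBC3, which conjugates ubiquitin to proteins, was raised to 1.30 ± 0.25 and 1.84 ± 0.12 and was the only tested gene of its list. With normexp it read 0.70 and was not called.

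None of the 11 tested genes of autophagy and proteolysis was called, where 6.87% of all models were called in either direction. Their median was 0.43, and RBL5, a rhomboid-like protein, lay just below the 2-fold line at 1.00 and 0.95. The lists of 5 redox genes (median 0.16), 2 chloroplast ribosomal proteins (-0.73), 2 fermentation genes (-0.16), 2 starch genes (-0.50), 2 chaperones (-0.00), 2 genes of amino acid synthesis (0.65) and 2 of gametes and zygotes (0.40) held no called model either. The same was true of the only tested gene for a cytosolic ribosomal protein (-0.44) and for metal transport (0.58). With 6.87% of all models called, lists this short could hold none.

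Histones showed how far the result can depend on the probe. Of 25 models of histone H2B with both probes tested, none was called, where 6.87% of all models were. Their means of probes 1 and 2 lay between 0.13 and 0.39. Probe 3 of H2B models lay between 0.88 and 1.35 in all 26 tested, and 17 of them were called higher. H2B genes are nearly identical copies, so these probes cannot be assigned to single genes and the 26 readings are not separate measurements. The median over 26 histone models was 0.22.

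**Figure D3:**
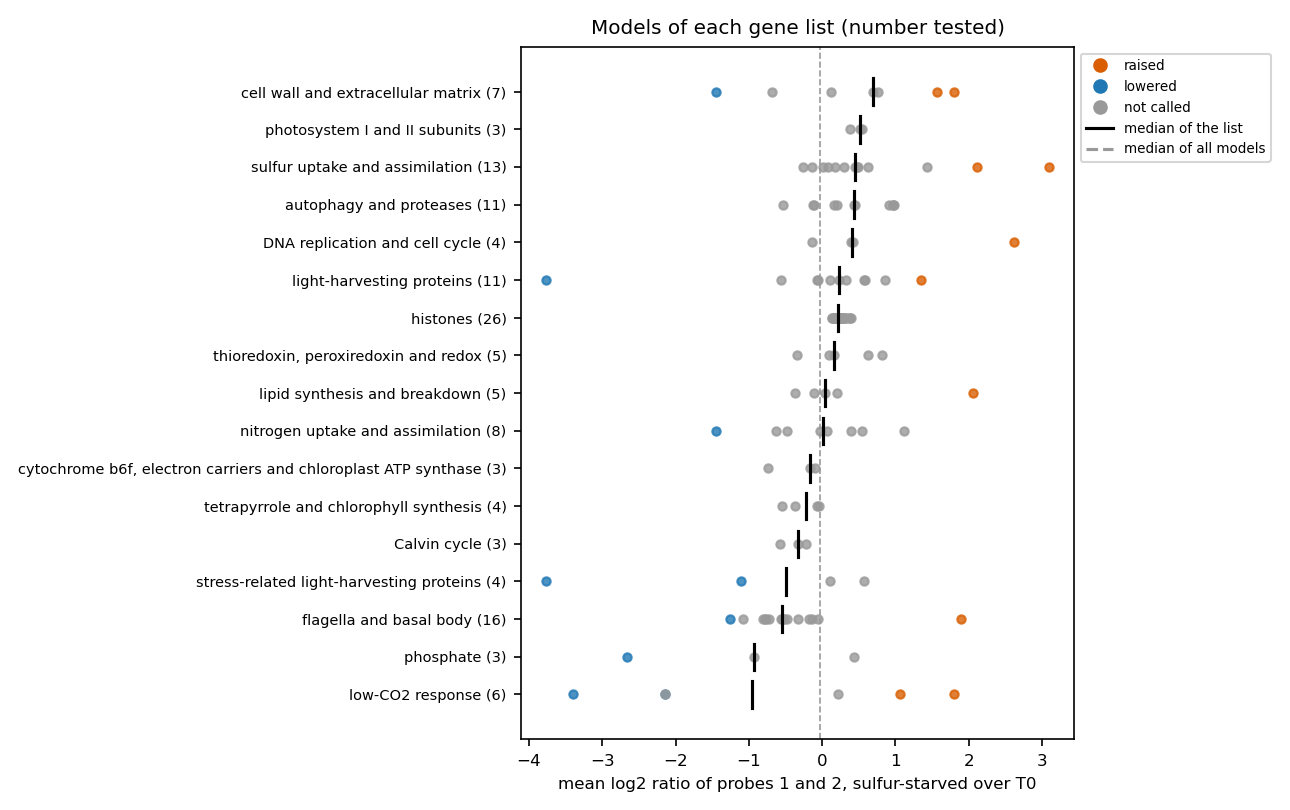
Mean log2 ratio of probes 1 and 2, starved over T0 cells, for each model of the gene lists with at least 3 models tested (number in brackets), with called models in colour, a black bar at the median of the list and a dashed line at the median of all models (-0.02). Called models lie on both sides in the low-CO2, flagellar and cell wall lists, and histones form a narrow group between 0.13 and 0.39.

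The agreement of probes 1 and 2 chose the called models and is given as a description. Of 625 models with either probe called, 343 (54.9%) had both, and 2 had probes called in opposite directions. When probe 1 was called, probe 2 was called the same way in 71.5% of 480 models. Across all 4993 models the means of the 2 probes correlated at r = 0.84 and differed by a median of 0.16. The models with opposite probes were 194756, at -1.09 and 1.20, and CGL35, a predicted protein, at 1.00 and -1.01. Both lay near the 2-fold line, and probe 3 sided with probe 1 in each, at -1.05 and 1.01.

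The probes of a model often overlap. Sequences of both probes were at hand for 1506 models (10.3%), since the list of probes was held only in part, and in 678 of them (45.0%) the probes shared an unbroken run of at least 20 bases, with a median of 52. In 61 models the probes were identical. Among tested models with shared runs, both probes were called in 70.4% of those with either called, against 44.1% where no such run was shared, and the correlations were 0.96 over 232 models and 0.72 over 300. Of 34 called models with known sequences, 19 shared a run. The 2 probes of such a model are not independent readings.

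**Figure D4:**
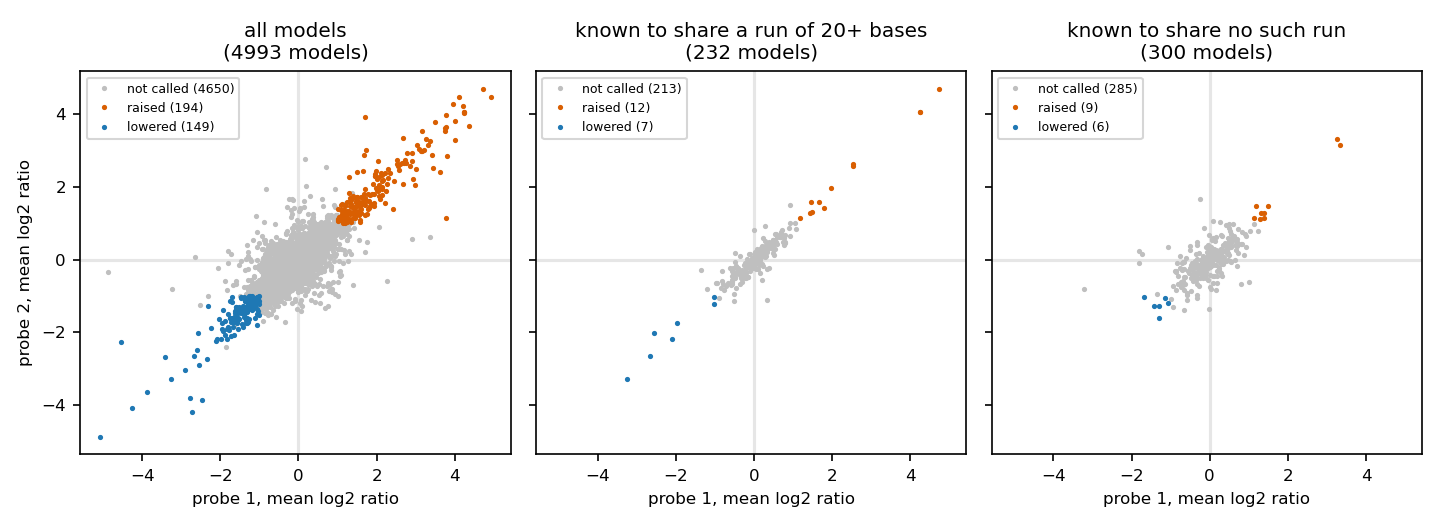
Mean log2 ratio over arrays 3 to 6 of probe 2 against probe 1, for all 4993 models with both probes tested (left), the 232 known to share a run of at least 20 bases (middle) and the 300 known to share none (right), with raised and lowered models in colour. The points follow the diagonal more closely in the middle panel (r = 0.96) than in the right one (r = 0.72).

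Probe 3 took no part in the calls. It was tested in 104 of the 194 raised models and was called higher in 71 (68.3%), against 4.0% of all probes 3 tested. It was tested in 105 of the 149 lowered models and was called lower in 57 (54.3%), against 4.39%. Probe 3 had the sign of the model in 94 and 101 of them. Its median was 1.36 in the raised models, where the median of probes 1 and 2 was 1.70, and -1.09 in the lowered models, where it was -1.43. Probe 3 was not fully independent either, since it shared a run of at least 20 bases with another probe of its model in 313 of 1504 models with known sequences.

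Large rises were read by probes 1 and 2 but not by probe 3 in model 190948, where the T0 signal of probe 3 was well above background on all 4 arrays and the mean was -0.38, and in model 192924, where it read 1.04 ± 0.99 and was not called. Only model 82916 (CHLRE_05g232150v5) had a probe 3 called the opposite way. Its probe 1 read 3.19, 3.02, 2.71 and 2.69, its probe 2 read 3.09, 2.90, 2.95 and 2.86, and its probe 3 read -0.60, -0.77, -1.08 and -1.86. In 75 of the models with known sequences probe 3 held a run that is the reverse complement of one in another probe.

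**Figure D5:**
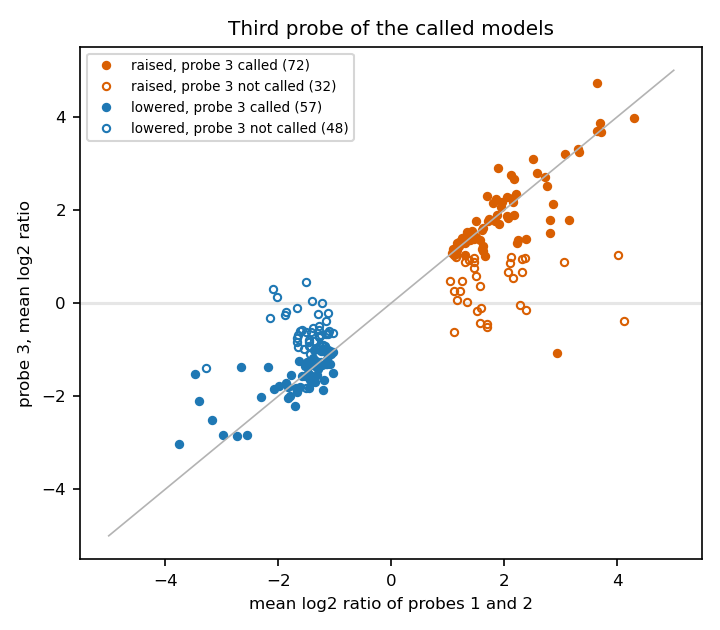
Mean log2 ratio of probe 3 against the mean of probes 1 and 2 for the called models whose probe 3 was tested, with filled points where probe 3 was called. Probe 3 had the sign of the model in 94 of 104 raised and 101 of 105 lowered models, and 1 raised model, 82916, was called the other way at -1.08.

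The called models were chosen on all 4 arrays, so their values on each slide describe them and are not an independent check. The median log2 ratio of the 194 raised models was 1.80 on arrays 3 and 4 and 1.68 on arrays 5 and 6, and 180 of them were beyond 2-fold on both slides. For the 149 lowered models the medians were -1.35 and -1.49, with 129 beyond 2-fold on both. On the first dye-test array the medians were 0.07 and 0.02, and none of the 175 raised and 135 lowered models measured there reached 2-fold. With arrays 3 and 4 alone 211 models were raised and 135 lowered, whereas arrays 5 and 6 alone gave none at the adjusted threshold, where 186 and 161 had an unadjusted p under 0.05 and a 2-fold change in both probes (limma).

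Some called models lay next to each other on the chromosome. Of the called models, 170 raised and 112 lowered could be placed at a locus, as could 4215 of all models with both probes tested. Among the called models so placed, 3 pairs of raised and 2 pairs of lowered models were neighbours in locus order. How many pairs to expect was not computed. The strongest pair was that of models 129088 and 190200 (CHLRE_14g617400v5 and CHLRE_14g617450v5), at means of 3.07 and 3.70. SMC5B lay beside model 182898, which read 1.25.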

How the data were processed

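The authors hybridised 2-colour Agilent arrays and deposited the scanner output of Agilent Feature Extraction 10.7.3.1 (per the submitters' processing notes). The deposited spot intensity of each channel had been corrected by the software for background and dye. The same files hold spot and local background intensity before correction, log10 ratios and quality marks. A value table that the authors deposited holds the log10 ratio of Cy5 over Cy3, which was converted to log2.

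Log2 ratios of the corrected intensities were normalized by loess within each array (limma 3.58.1, R 4.3.3). Controls and spots with a mark for unevenness or outlying signal were dropped, saturation was no reason to drop a spot, and repeated spots were averaged. limma's moderated test compared the mean of the 4 arrays with 0, with Benjamini-Hochberg adjustment over all 18241 tested probes. No reads were counted, and the number of arrays limits the precision.

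Members and lists were chosen with earlier results of these data known. Named models were up to 12 raised and 12 lowered ranked by the smaller change of probes 1 and 2, up to 4 called models of each list, fixed sulfur and light-harvesting genes, and models whose probes disagreed. Lists were made by patterns in names, and 9 models that a pattern had caught wrongly were taken out after their values were seen. Names came from the study's tables (489 models). RefSeq lists 12302 of the 14557 model numbers as former names of loci of the v5.5 assembly, from which only the locus tags and their order were taken. Probe sequences were compared but are not printed. The steps were tested on simulated data. Figures were drawn with matplotlib 3.10.9. Arrays 1 and 2 were used only in an alternative.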

Additional observations from a re-analysis of the deposited data

Results flagged for a closer look

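Over the named models and the gene lists, 124 sets of 4 array values were examined for a single value far from the other 3, and 9 (7.26%) were found, where chance gives about 1 in 20. On array 3, probe 2 was high in model 195337 (5.02, others 4.58 to 4.62), model 195434 (4.49, others 3.88 to 3.98) and model 206120 (4.44, others 3.85 to 3.95). On array 4, probe 1 of GPD1 was low at 2.08, with the others at 2.14 to 2.15. On array 5, probe 2 of model 189618 was low at 3.69, with the others at 3.85 to 3.88, and the median of the stress-related light-harvesting list was -0.83, with the others at -0.42 to -0.36. On array 6, probe 1 read -3.42 in model 191073 and -1.78 in model 191865, and probe 2 read -4.06 in model 191962. None of these values was on the other side of 0 from the rest of its set.

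The second dye-test array lies outside the comparison and put 31.6% of the tested probes beyond 2-fold, against 0.398% on the first. On this array, whose channels are both given as starved RNA of cc125, probe 1 read 3.95 for ARS1, 4.14 for ARS2, 4.25 for ECP76, 4.76 for ECP88, 3.96 for SLT1 and 5.34 for LHCSR1, and -4.69 for SLT3, -5.26 for CAH1 and -2.38 for NAB1. SLT1, CAH1 and NAB1 had the same sign there as in the starved cells of cc3491, and LHCSR1 and SLT3 probe 1 the opposite one. Of the raised models 99 of 194 were beyond 2-fold on this array, 73 of them upward, and of the lowered models 69 of 149, with 56 downward. What the channels of this array hold was not tested.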

How the results depend on the processing

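The probe counts (higher and lower) and model counts (raised and lowered) were 303 and 261, 72 and 45 with normexp, 145 and 67, 29 and 12 with Holm adjustment, 3999 and 4331, 884 and 903 with no minimum change, and 239 and 80, 61 and 17 with a 4-fold minimum. With all 6 arrays they were 27 and 44, 1 and 3. With arrays 5 and 6 alone all counts by limma were 0 (smallest adjusted p 0.0548), where 1051 and 1184 probes and 186 and 161 models had an unadjusted p under 0.05 and a 2-fold change (the arrays of this pair differed by a median of 0.21 on the log2 scale, arrays 3 and 4 by 0.081). Requiring all 3 probes gave 71 and 57 models, and any of the 3 gave 545 and 509. Leaving out 1 array in turn gave 833 to 866 and 697 to 794 probes, 183 to 196 and 130 to 145 models. The counts in the other settings, among them slide as a random block (184 and 134 models), arrays 3 and 4 averaged as 1 (187 and 141, chosen after seeing the data) and subtraction of the first dye-test array (174 and 136), stayed within 1.5 times.

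Of 42 named models called, 16 lost the call with normexp, all 42 with arrays 5 and 6 alone and with all 6 arrays, 26 with Holm adjustment and when all 3 probes were required, 13 with a 4-fold minimum, 4 with either other filter on dim probes, and 0 to 5 in each other setting. SIR1, not called in any, turned to -0.16 without further normalization and with the deposited value table, -0.064 with median centring, -0.062 with all 6 arrays, -0.050 after subtraction of the first dye-test array, -0.41 with arrays 5 and 6 alone, -0.13 with arrays 3 and 4 averaged, and ranged from -0.15 to 0.29 when 1 array was left out, with -0.11 without array 3 and -0.15 without array 4. LHCSR3, not called, turned to -0.13 after that subtraction. The cause was not tested. List medians moved without further normalization to -0.27 (tetrapyrrole), -1.13 (low CO2), 0.18 (histones), 0.26 (autophagy and proteases) and -0.10 (all models), and with median centring to 0.52 (sulfur), 0.30 (light-harvesting), -0.17 (tetrapyrrole) and 0.28 (histones).

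No paired analysis was possible because each array already holds both RNAs, and the same replicate numbers in cc3491 and cc125 mark arrays of different strains. Signal over background left 9564 models untested.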

Other observations

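Of the 343 called models, 43 carry a name or description, and those not described above were picked out after their values were seen. Among raised models, MOT52, a predicted protein, read 3.21 and 3.00 with probes 1 and 2, and TEF13, likewise a predicted protein, read 2.71, 2.74 and 2.71 with its 3 probes, each with an SD under 0.15. Model 138565, with a TROVE domain known from RNA-binding proteins, read 3.13 and 2.99, with 0.88 in probe 3. NRX2, a nucleoredoxin, read 2.13, 2.32 and 1.29, and COX16, an assembly factor of the respiratory cytochrome c oxidase, read 2.10, 2.39 and 1.36. THB1, a truncated hemoglobin, read 1.19 and 1.00, and PRMT1, an arginine methyltransferase, read 1.23 and 1.59.

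Among lowered models, AOC5, a cationic amino acid transporter, read -2.35 and -2.74, and ERM1, a membrane protein, read -1.99 and -2.20 while its probe 3 read 0.31 and was not called. KIR2, like a ketoacid isomerase, read -1.55, -1.60 and -0.59. ACS1, which makes acetyl-CoA from acetate, the carbon source of the medium, read -1.11 and -1.30. FCL, a fibrocystin-like protein, read -1.10, -1.20 and -0.67.

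Some probes also stood out in models where probe 1 or probe 2 was not tested. ALK2, an Aurora-like kinase, read 3.48 with probe 1, HSP22A, a small heat shock protein, read 2.03 with probe 1, and SPP1C, a signal peptide peptidase, read 2.64 with probe 2 and 2.22 with probe 3.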
